A study of Mus musculus with 10 samples.

Results

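The genes described are secreted antagonists of Wnt signalling (Dkk1, Dkk2, Dkk3, Sfrp1, Sfrp2, Frzb and Wif1) and 3 other genes of the pathway (the transcription factors Lef1 and Tcf7, and Axin2). They were listed by name, and each was read from the probe set that carried its symbol alone and had the highest mean over the arrays. Of these 10 genes, 9 had such a probe set, out of 19938 genes named on the array. Tcf7 was not analysed here. The cells were bone marrow mesenchymal stromal cells (MSC), adherent fibroblast-like cells that can form bone, fat and cartilage in culture. They came from 5 independent preparations, called MSC I to MSC V, with no control or treated group among them. The marrow was that of female C57BL/6J mice aged 6 to 8 weeks, for which the labels name no mutant allele. The cells were at passage 16 to 17 and were grown in murine MesenCult medium with 20% supplement and antibiotics. RNA of each preparation was measured on 2 arrays, replicates 1 and 2. The labels do not say whether the arrays of a preparation came from separate cultures, so the p-values rest on the spread among arrays alone, and that spread may be technical. How many mice gave each preparation is likewise not given in the sources used here, and long culture limits how closely such cells stand for those in marrow.

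Wnt proteins are secreted signals that bind a Frizzled receptor together with Lrp5 or Lrp6, which spares beta-catenin from destruction. Beta-catenin then enters the nucleus and switches on genes with transcription factors of the Tcf/Lef family. Dickkopf proteins (Dkk) block the pathway at Lrp5 and Lrp6, while secreted Frizzled-related proteins (Sfrp1, Sfrp2 and Frzb) and Wif1 bind the Wnt proteins themselves. In marrow stroma the pathway is known to favour bone-forming over fat-forming cells.

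The values are log2 expression after RMA, a method that makes arrays comparable and summarises the probes of a gene. A step of 1 is a fold of 2, levels of different genes cannot be compared, and differences among low values are compressed, so a fold against a low level is likely an underestimate. The array medians lay between 6.45 and 6.63 and no arrays held identical values. A gene was tested where at least 2 of the 10 arrays lay above the median of the whole table (6.55), which 10971 genes did. A gene was called where limma's moderated test gave an adjusted p under 0.05 and the difference was at least 1 log2. Of the 9 genes, 7 were tested. Dkk1 passed this filter through MSC IV alone, Dkk2 through MSC I and MSC II, and Lef1 through MSC I and MSC V, so these genes were bound to vary among the preparations. Wif1 and Axin2 did not pass it.

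The stromal label was compared with marker genes. Vim, an intermediate filament of mesenchymal cells, lay between 13.35 and 13.75 on every array, and Pdgfrb, a stromal growth factor receptor, at 10.83 or above. Col1a1, Col1a2 and Cd44 lay at 9.05 or above on every array. The stromal markers Thy1 and Eng were low in most preparations: Eng was at most 5.85 except in MSC IV (9.69 and 9.50), and Thy1 passed 6.55 only in MSC II (6.69 and 7.69) and on 1 array of MSC III (6.82). Nt5e was low in MSC I (5.77 and 6.07) and highest in MSC IV (10.75 and 11.66). Pdgfra (6.56 and 7.67, against 8.19 or above elsewhere) and Vcam1 (7.03 and 6.46, against 9.48 or above) were lowest in MSC IV. None of the 8 T-cell markers measured passed the filter, and they lay between 4.53 and 5.51. None of the 5 endothelial or 3 B-cell markers passed it either. Of the 8 blood-cell markers, 3 passed it. Ptprc, which marks white blood cells in general, lay between 5.11 and 5.25. Cd68, a macrophage marker, was highest in MSC V (8.53 and 8.55). Kit and Cd34, found on blood progenitors and on some other cells, varied more and are given with the fat and bone markers.

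Promoters from the RefSeq table used (build GRCm38.p6) are shown for 4 genes, chosen after their values were seen: Dkk1, high in MSC IV, and Dkk2, Frzb and Lef1, which were all highest in MSC I. Each is the 250 bases before an annotated start, read 5′ to 3′ on the gene's strand, and for Lef1 the most upstream of 4 listed starts. Capitals mark matches to the core recognised by Tcf/Lef factors on either strand, and to the TATA box TATAAA on the gene's strand. The core was searched as CTTTG followed by AA, AT, TA or TT.
Dkk1, chr19:30549497-30549746, minus strand: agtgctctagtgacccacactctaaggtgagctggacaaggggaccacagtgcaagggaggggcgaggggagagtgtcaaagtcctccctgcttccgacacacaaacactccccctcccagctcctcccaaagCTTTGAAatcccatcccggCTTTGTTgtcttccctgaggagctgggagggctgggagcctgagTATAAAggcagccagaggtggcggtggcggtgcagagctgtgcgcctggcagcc
Dkk2, chr3:132085042-132085291, plus strand: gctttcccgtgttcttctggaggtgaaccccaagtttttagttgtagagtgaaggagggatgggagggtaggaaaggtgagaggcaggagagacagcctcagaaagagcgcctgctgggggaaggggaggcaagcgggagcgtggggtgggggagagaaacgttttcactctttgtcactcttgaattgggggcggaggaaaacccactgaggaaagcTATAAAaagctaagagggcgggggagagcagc
Frzb, chr2:80447397-80447646, minus strand: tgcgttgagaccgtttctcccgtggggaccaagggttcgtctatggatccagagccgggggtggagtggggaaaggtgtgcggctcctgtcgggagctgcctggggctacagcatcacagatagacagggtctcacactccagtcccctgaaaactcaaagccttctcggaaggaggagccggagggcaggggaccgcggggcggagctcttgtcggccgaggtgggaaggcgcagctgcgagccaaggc
Lef1, chr3:131110047-131110296, plus strand: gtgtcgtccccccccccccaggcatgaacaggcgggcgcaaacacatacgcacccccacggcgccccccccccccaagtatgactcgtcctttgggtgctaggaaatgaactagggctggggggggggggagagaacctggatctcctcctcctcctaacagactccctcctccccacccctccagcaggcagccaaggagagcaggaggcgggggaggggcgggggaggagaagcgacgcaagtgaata
The Dkk1 window held 2 Tcf/Lef matches, CTTTGAA at 117 to 111 bases and CTTTGTT at 98 to 92 bases before the start, and a TATA box 54 to 49 bases before it. The Dkk2 window held only a TATA box, 32 to 27 bases before the start. Neither motif was present in these letters for Frzb or for the Lef1 start shown. The most downstream of the Lef1 starts, start 4 of the table, had a Tcf/Lef match, CTTTGTA on the minus strand at 147 to 141 bases before it. The 8 listed genes found in the table had 12 promoters. Of these genes, 2 had such a match in any promoter and 2 a TATA box, and these were the genes named above. A Tcf/Lef match was found in 14.8% of the 32851 promoters of the same length in the table and a TATA box in 7.59%. Counted per promoter as well, a Tcf/Lef match was in 2 of the 12 (Dkk1 and Lef1 start 4), near the share over all promoters. A TATA box was in 2 of the 12 (Dkk1 and Dkk2). With so few promoters, no difference from these shares was tested. The matches are descriptions of sequence, and no binding was measured. The listed genes not in the table were Dkk3 and Sfrp1.

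Across the 5 preparations the antagonists did not move as a block. Sfrp1, Frzb, Dkk2 and Lef1 stood highest in MSC I, Dkk1 in MSC IV, Dkk3 in MSC V and Sfrp2 in MSC III. MSC IV was lowest for Dkk2, Dkk3, Sfrp1 and Lef1. The F test over all preparations called each of the 7 genes tested, with ranges between preparation means from 2.01 log2 for Sfrp2 to 5.88 log2 for Sfrp1. The same test called 29.1% of all genes tested, and the median range was 3.60 over the 7 and 0.75 over all genes. Dkk1, Dkk2 and Lef1 passed the filter through some preparations only, so their calls and wide ranges follow in part from it.

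**Figure D1:**
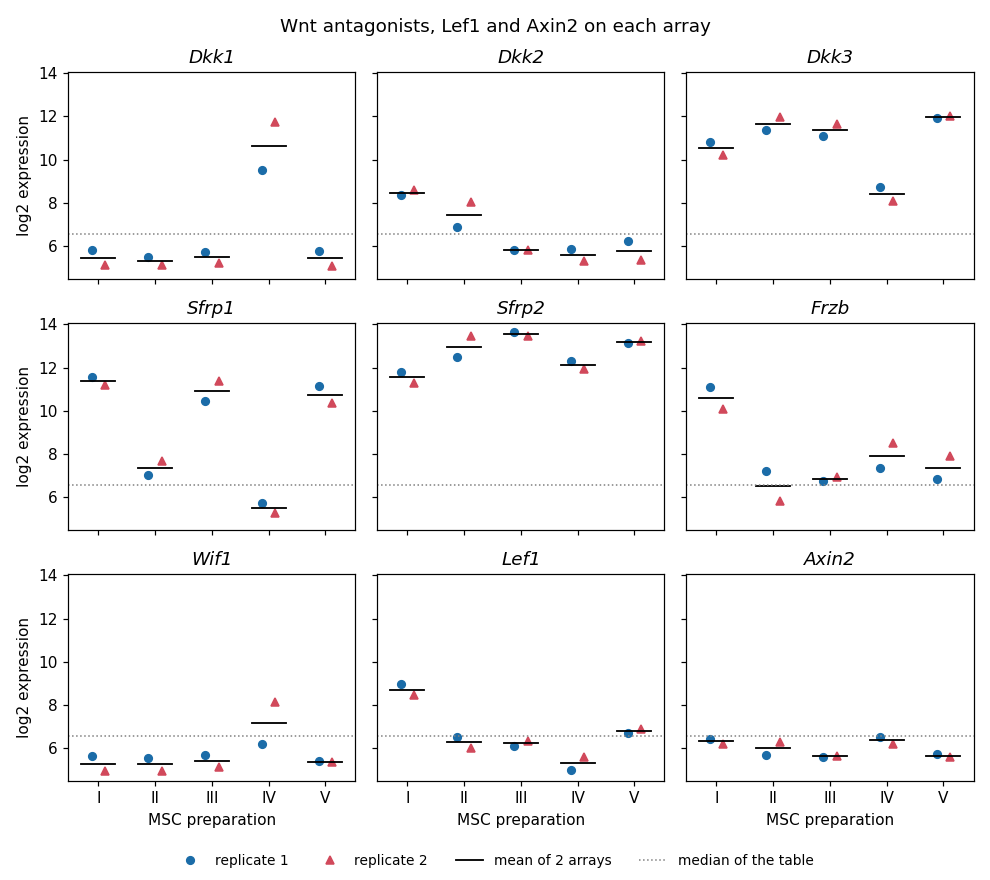
Log2 expression of the 9 measured genes (vertical axis) in the 5 MSC preparations (horizontal axis). Circles and triangles are replicates 1 and 2, black lines the mean of 2 arrays and the dotted line the table median of 6.55. Dkk1 lies above the dotted line only in MSC IV, at 9.54 and 11.75, while Sfrp2 lies between 11.29 and 13.63 on every array.

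Dkk1, a high-affinity Lrp5 and Lrp6 blocker and a known inhibitor of bone formation, was high in MSC IV only. It read 9.54 and 11.75 on the arrays of MSC IV. The other 8 arrays lay between 5.08 and 5.82, all under the table median. The groups did not overlap, but the arrays of MSC IV differed from each other by more than those of any other preparation (10.64 ± 1.56, SD, n = 2). MSC IV exceeded the mean of the other four by 5.22 ± 0.509 log2 (SE; adjusted p = 0.000462), a fold of 37.2. Among MSC I, II, III and V the largest difference was that of MSC II minus MSC III (−0.18 log2, adjusted p = 0.894). Without an MSC IV array the gene no longer passed the filter. With the filter removed, MSC IV still stood 6.32 log2 above the others without its replicate 1 (adjusted p = 0.00172) and 4.11 log2 without its replicate 2 (adjusted p = 0.0056).

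Dkk2, which can block or weakly activate the pathway depending on the cell, had a different order. Its values were 8.35 and 8.62 in MSC I, and 6.88 and 8.04 in MSC II. They were 5.81 and 5.82 in MSC III, 5.85 and 5.31 in MSC IV, and 6.24 and 5.34 in MSC V. MSC I and MSC II thus lay above all other arrays without overlap. MSC I exceeded the mean of the other four by 2.32 ± 0.33 log2 (adjusted p = 0.00144), a fold of 5.0. MSC I and MSC II were 1.03 ± 0.417 log2 apart, which did not pass the test (adjusted p = 0.0882). MSC II was higher than MSC IV by 1.88 log2 (adjusted p = 0.0207) and than MSC V by 1.67 log2 (adjusted p = 0.0375), but not past the test over MSC III (1.64 log2, adjusted p = 0.0629). Without MSC II replicate 2 the first became 1.30 log2 (adjusted p = 0.101) and the second 1.09 log2 (adjusted p = 0.14), and without MSC IV replicate 2 the first was not called either (1.61 log2, adjusted p = 0.131). The MSC V pair was also not called without MSC V replicate 2 (1.22 log2, adjusted p = 0.141), without any 1 array of MSC I or MSC III (adjusted p from 0.053 to 0.0622), with no filter (adjusted p = 0.0644) or with only the arrays of the pair (adjusted p = 0.133). MSC III, IV and V were within 0.24 log2 of each other. MSC IV minus the mean of the other four was −1.31 log2 (adjusted p = 0.021), and the call was lost without its replicate 1 (−1.58 log2, adjusted p = 0.0516) or replicate 2 (−1.04 log2, adjusted p = 0.189).

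Dkk3, a divergent Dickkopf that is not a classical Lrp6 blocker, was well above the table median on every array. Its values were 10.80 and 10.24 in MSC I, 11.37 and 11.96 in MSC II, and 11.11 and 11.63 in MSC III. They were 8.73 and 8.07 in MSC IV, and 11.95 and 12.04 in MSC V. MSC IV lay below every other array, and its difference from the mean of the other four was −2.99 ± 0.249 log2 (adjusted p = 0.000233), a fold of 7.93. MSC IV was thus the preparation with the most Dkk1 and the least Dkk3, and over the 10 arrays, which share 5 sources, their Pearson r was −0.909. That value rests on MSC IV, since Dkk1 lay under the table median on all other arrays. Above MSC IV came MSC I, which was lower than MSC V by 1.48 log2 (adjusted p = 0.0138) and than MSC II by 1.14 log2 (adjusted p = 0.0256). Both calls were lost without MSC I replicate 2 (−1.20 log2 for MSC V and −0.87 log2 for MSC II). The call against MSC V was also lost without MSC V replicate 1 (−1.52 log2) or replicate 2 (−1.43 log2), and that against MSC II without MSC II replicate 2 (−0.85 log2). MSC II, III and V did not differ past the test, with MSC III minus MSC V at −0.63 ± 0.315 log2 (adjusted p = 0.278). Against the mean of the other four, MSC V was higher by 1.51 log2 (adjusted p = 0.0114) and MSC II by 1.09 log2 (adjusted p = 0.0219). The MSC V call needed both of its arrays (adjusted p = 0.0803 without replicate 1 and 0.0756 without replicate 2), and MSC II fell to 0.80 log2 without its replicate 2 (adjusted p = 0.182).

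Sfrp1, which soaks up Wnt proteins through a Frizzled-like domain, showed the widest range of the 7 genes. It read 11.55 and 11.21 in MSC I, 10.44 and 11.37 in MSC III, and 11.13 and 10.37 in MSC V. It read 7.04 and 7.66 in MSC II, and only 5.73 and 5.27 in MSC IV, under the table median. The arrays formed 3 levels that did not overlap: MSC I, III and V, then MSC II, then MSC IV. MSC I and MSC IV differed by 5.88 ± 0.389 log2 (adjusted p = 3.3e-05), a fold of 59.0. MSC II was lower than MSC I by 4.03 log2, a fold of 16.4 (adjusted p = 0.0003). Within the upper level no difference passed the test: MSC I minus MSC V was 0.63 ± 0.389 log2 (adjusted p = 0.273) and MSC III minus MSC V 0.16 log2 (adjusted p = 0.84). MSC II exceeded MSC IV by 1.85 log2 (adjusted p = 0.017), a call lost without MSC II replicate 2 (1.54 log2, adjusted p = 0.107) or MSC IV replicate 2 (1.62 log2, adjusted p = 0.112).

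Against the mean of the other four, Sfrp1 was called in each preparation. It was higher in MSC I by 2.76 log2 (adjusted p = 0.00048), in MSC III by 2.16 log2 and in MSC V by 1.96 log2 (adjusted p = 0.00925 for both). It was lower in MSC II (−2.29 log2, adjusted p = 0.00342) and in MSC IV (−4.60 ± 0.308 log2, adjusted p = 0.000103). The MSC III call was lost without its replicate 2 (1.69 log2, adjusted p = 0.111) and the MSC V call without its replicate 1 (1.58 log2, adjusted p = 0.0924).

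Sfrp2, a relative of Sfrp1 abundant in stromal cells, was far above the table median on all arrays and varied least of the 7 genes. It read 11.80 and 11.29 in MSC I, 12.48 and 13.45 in MSC II, and 13.63 and 13.48 in MSC III. It read 12.30 and 11.91 in MSC IV, and 13.14 and 13.22 in MSC V. The arrays of MSC I lay below those of every other preparation. MSC I was under the mean of the other four (−1.41 ± 0.249 log2, adjusted p = 0.00378), a fold of 2.65. The step from MSC I to its neighbour MSC IV did not pass the test (MSC I minus MSC IV −0.56 log2, adjusted p = 0.178), and MSC II, III and V did not differ from each other past the test. MSC III exceeded the mean of the other four by 1.11 log2 (adjusted p = 0.0484), but the call was lost with the low-value filter removed (adjusted p = 0.0776) and when any 1 array except MSC II replicate 2 was left out (adjusted p up to 0.315, without MSC III replicate 1).

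Frzb, also known as Sfrp3 and first described in cartilage, was high in MSC I. It read 11.11 and 10.06 there. It read 7.22 and 5.82 in MSC II, 6.73 and 6.92 in MSC III, 7.33 and 8.52 in MSC IV, and 6.82 and 7.89 in MSC V. The arrays of MSC I lay above all the others. Those of MSC II, III and V overlapped, as did those of MSC IV and V. MSC I exceeded the mean of the other four by 3.43 ± 0.486 log2 (adjusted p = 0.00144), a fold of 10.8. No pair among MSC II to V passed the test, the widest being MSC II minus MSC IV at −1.41 ± 0.615 log2 (adjusted p = 0.157). MSC I was also called over each other preparation, by 2.66 log2 (MSC IV, adjusted p = 0.0106) to 4.06 log2 (MSC II, adjusted p = 0.00229). Without MSC I replicate 1 the differences from MSC IV (2.13 log2, adjusted p = 0.0671) and MSC V (2.71 log2, adjusted p = 0.0562) were no longer called.

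Sfrp2 and Frzb, relatives that bind Wnt proteins in the same way, therefore stood at opposite ends in MSC I. Their Pearson r over the 10 arrays was −0.823, while that of Sfrp1 and Sfrp2 was 0.171. These values describe 5 preparations and not 10 independent samples.

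Wif1, a Wnt-binding protein made by bone-forming cells among others, exceeded the table median on 1 array. That array was MSC IV replicate 2 (8.13), and MSC IV replicate 1 read 6.19. The other 8 arrays lay between 4.93 and 5.70. It was not tested with the filter. With the filter removed, MSC IV stood 1.83 ± 0.477 log2 above the mean of the other four (adjusted p = 0.0417), and the F test did not call it (adjusted p = 0.144). Without MSC IV replicate 1 the difference was 2.80 log2 (adjusted p = 0.00901) and the F test called it (adjusted p = 0.0188). Without MSC IV replicate 2 the difference was 0.85 log2 (adjusted p = 0.24) and the F test did not (adjusted p = 0.453). The call of MSC IV was also lost when any 1 of the arrays of the other preparations was left out (adjusted p from 0.0522 to 0.0827).

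Lef1, a Tcf/Lef factor that acts together with beta-catenin, was high in MSC I. It read 8.98 and 8.44 in MSC I, 6.54 and 6.01 in MSC II, and 6.11 and 6.35 in MSC III. It read 5.01 and 5.61 in MSC IV, and 6.68 and 6.90 in MSC V. Both arrays of MSC I lay above all others, and those of MSC IV below all others. MSC I exceeded the mean of the other four by 2.56 ± 0.22 log2 (adjusted p = 0.000128), a fold of 5.88, and MSC V, its nearest neighbour, by 1.92 log2 (adjusted p = 0.00276). MSC IV was lower than the mean of the other four (−1.70 log2, adjusted p = 0.00148). MSC II, III and V were within 0.56 log2 of each other and did not differ past the test (adjusted p from 0.247 to 0.939). MSC IV was lower than MSC V (−1.48 log2, adjusted p = 0.0103), a call lost without MSC IV replicate 1 (−1.18 log2, adjusted p = 0.0509).

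Lef1 and Dkk2 lie near each other on chromosome 3, with 4 protein-coding genes between them in the RefSeq annotation. Both were highest in MSC I. None of the genes between them was called in MSC I, although Papss1 too had its highest mean there (9.45, against 8.85 to 9.39). MSC I minus the mean of the other four was −0.17 log2 for Hadh, 0.08 for Cyp2u1, −0.20 for Sgms2 and 0.32 for Papss1 (adjusted p from 0.134 to 0.801).

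Axin2, a scaffold of the beta-catenin destruction complex and a widely used readout of pathway activity, stayed below the table median on all arrays. It ranged from 5.57 to 6.52, with MSC I at 6.44 and 6.21 and MSC IV at 6.52 and 6.20. MSC III (5.57 and 5.66) and MSC V (5.71 and 5.58) lay under both of these without overlap, and MSC II read 5.70 and 6.29. With the filter removed its range was 0.75 log2 and did not pass the F test (adjusted p = 0.0613).

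The preparations were next compared by how many of the 7 tested genes were called in each, against the mean of the other four. In MSC I, Dkk2, Sfrp1, Frzb and Lef1 were higher and Sfrp2 lower, 5 of 7, where 13.0% of all genes tested were called (7.73% higher and 5.22% lower). Of these genes, only Frzb and Lef1 were called between MSC I and every other preparation. By Sfrp1, MSC I did not differ past the test from MSC III (0.48 log2, adjusted p = 0.392) or MSC V (0.63 log2, adjusted p = 0.273). The same held by Dkk2 for MSC II (1.03 log2, adjusted p = 0.0882) and by Sfrp2 for MSC IV (−0.56 log2, adjusted p = 0.178). In MSC IV, Dkk1 was higher and Dkk2, Dkk3, Sfrp1 and Lef1 lower, also 5 of 7, against 11.0% for the whole set of genes tested (3.29% higher and 7.70% lower). Dkk1 passed the filter through MSC IV alone, Dkk2 through MSC I and MSC II, and Lef1 through MSC I and MSC V. Their calls, and so both counts of 5, follow in part from the filter. By Dkk2, MSC IV did not differ past the test from MSC III or MSC V. MSC III minus MSC IV was 0.24 log2 (adjusted p = 0.731) and MSC IV minus MSC V −0.21 log2 (adjusted p = 0.739). Lef1 was not called between MSC II and MSC IV (0.97 log2, adjusted p = 0.0496, under the minimum of 1 log2). Nor was it called between MSC III and MSC IV (0.93 log2, adjusted p = 0.0622). The count of 5 became 3 without MSC IV replicate 1 or replicate 2, since Dkk1 was then not tested and Dkk2 not called.

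MSC II, III and V each had 2 calls. In MSC II these were Dkk3 higher and Sfrp1 lower, against 5.14% of all genes tested (2.45% higher and 2.69% lower). In MSC III they were Sfrp1 and Sfrp2, both higher, against 2.27% of all genes tested (1.31% higher and 0.957% lower). In MSC V they were Dkk3 and Sfrp1, both higher, against 3.55% (2.11% higher and 1.44% lower). For Sfrp1, MSC I minus MSC III was 0.48 log2 (adjusted p = 0.392) and MSC III minus MSC V 0.16 log2 (adjusted p = 0.84). For Dkk3, MSC II minus MSC V was −0.33 log2 (adjusted p = 0.499). The higher calls thus rest in part on low levels in the mean of the other four, of Sfrp1 in MSC II and MSC IV and of Dkk3 in MSC IV. The counts in MSC II, III and V also rested on few arrays. They changed when single arrays were left out. In each of these preparations the calls over all genes also fell without either of its own arrays. The medians over the 7 genes were 2.32 log2 in MSC I and −1.31 log2 in MSC IV, against −0.03 and 0.01 over all genes tested. Both medians over the 7 genes were the values of Dkk2, which passed the filter through MSC I and MSC II only.

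**Figure D2:**
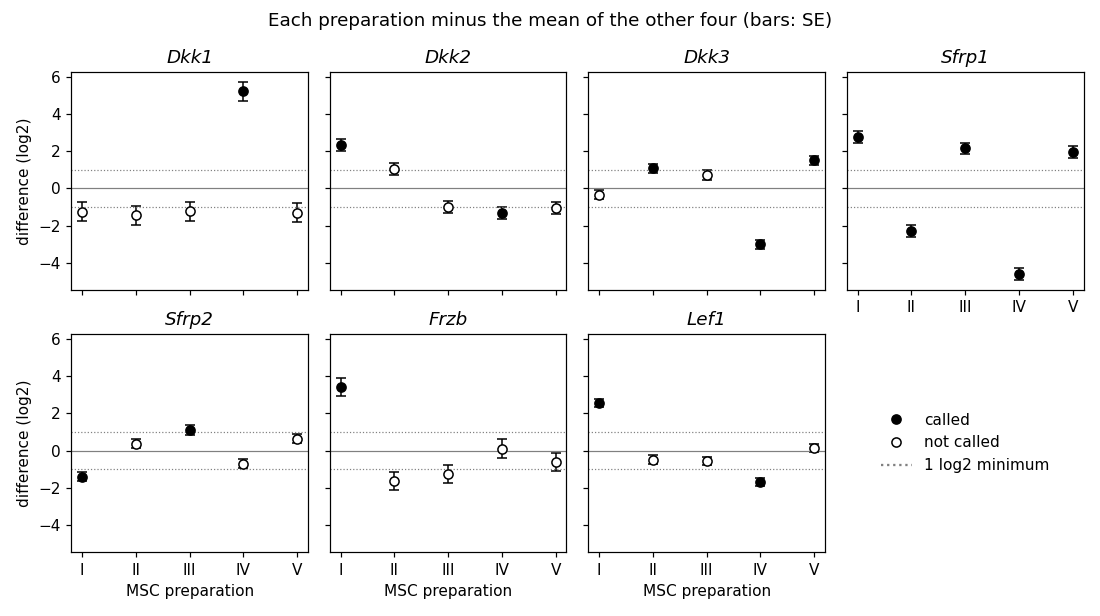
Difference of each preparation from the mean of the other four (vertical axis, log2) for the 7 tested genes, with bars of 1 SE. Filled points were called and open points were not, and dotted lines mark 1 log2. Sfrp1 is called in all 5 preparations, from −4.60 in MSC IV to 2.76 in MSC I, and Dkk1 only in MSC IV, at 5.22.

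Between MSC I and MSC V, 5 of the 7 genes differed, where 10.5% of all genes were called. Dkk2 was higher in MSC I by 2.69 log2 (adjusted p = 0.00368), Frzb by 3.23 log2 and Lef1 by 1.92 log2. Dkk3 (−1.48 log2) and Sfrp2 (−1.64 log2, adjusted p = 0.00917) were lower in MSC I. Dkk1 (0.05 ± 0.644 log2) and Sfrp1 (0.63 ± 0.389 log2) were not called, and a p that misses the threshold does not show equal levels. The Sfrp2 and Dkk3 calls were lost without MSC I replicate 2 (−1.38 and −1.20 log2), and that of Dkk3 also without either array of MSC V. The Frzb call was lost without MSC I replicate 1 (2.71 log2).

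Over the 10 pairs of preparations there were 36 calls of these genes. MSC I and MSC IV differed most often: 6 of 7 genes, all but Sfrp2, with 20.3% of all genes called. In that pair Sfrp1 (5.88 log2), Lef1 (3.40), Dkk2 (2.90), Frzb (2.66) and Dkk3 (2.12) were higher in MSC I and Dkk1 was lower (−5.17). MSC I and MSC II differed in 5 genes (14.9% of all genes called), MSC IV and MSC V in 5 (10.9%), MSC I and MSC III in 4 (11.3%), MSC II and MSC IV in 4 (9.06%) and MSC III and MSC IV in 4 (7.99%). Between MSC IV and MSC V the Sfrp2 call (−1.07 log2, adjusted p = 0.0441) was lost with no filter (adjusted p = 0.0757) or with the replicate block (adjusted p = 0.0788). The other three pairs had few: MSC II and MSC V differed in Dkk2 and Sfrp1 (5.56%), MSC II and MSC III in Sfrp1 (−3.56 log2, adjusted p = 0.0032, with 3.02% of all genes called), and MSC III and MSC V in none by limma (2.07%). For the last pair 0 of the 7 genes had an unadjusted p under 0.05, and the differences ran from −0.63 log2 for Dkk3 to 0.38 log2 for Sfrp2, with adjusted p from 0.274 to 0.975. These comparisons share arrays and are not independent.

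Markers of other cell types varied along with these genes. In MSC I, where Frzb, Lef1 and Dkk2 were highest, the mean of the 9 adipocyte markers was 11.27 and 10.73 on its arrays against 6.33 to 7.19 on the others, with Adipoq at 10.97 and 9.94 there and at 5.17 or below elsewhere. Kit, a receptor of blood progenitors and mast cells, read 10.52 and 10.16 in MSC I against 4.94 to 6.67 elsewhere. Cd34 was lowest in MSC I, at 5.69 and 4.96 against 6.76 to 11.62 elsewhere. The mean of all 8 blood-cell markers was 6.10 and 5.90 in MSC I, inside the range of 5.68 to 6.39 on the other arrays. In MSC IV, where Dkk1 was high, the mean of the 6 osteoblast markers measured was 11.09 and 10.71 against 5.47 to 9.08 on the others. Within MSC IV the arrays were ordered unevenly: Dkk1, Wif1 and Frzb were higher on replicate 2, as were the osteoblast markers Dmp1 (6.99 and 8.22) and Phex (6.68 and 8.69). All other osteoblast markers measured were higher on replicate 1: Sp7 (12.80 and 11.38), Alpl (13.82 and 12.25), Ibsp (14.45 and 12.64) and Dlx5 (11.78 and 11.06). Dmp1 did not follow Dkk1 across preparations: it was highest in MSC II (6.94 and 9.66), where the mean of Dkk1 was lowest. The part of these cell types in the Wnt gene levels was not tested. In such bulk RNA, fewer cells of a type and less RNA per cell cannot be told apart.

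The rest of the pathway was read from 116 further genes in 6 lists, of which 81 passed the filter. The F test called 34 of the 81 (42.0%, against 29.1% of all genes tested). The calls were uneven across the lists: 14 of 22 receptors and R-spondins, 10 of 15 textbook target genes, 4 of 6 ligands and secretion genes and 3 of 6 other antagonists, but 4 of 16 nuclear partners and 3 of 22 cytoplasmic components. Whether the lists differed from each other was not tested, and some genes are in more than 1 list. Against the mean of the other four, 9 of the 81 were higher and 8 lower in MSC I (21.0%, with 13.0% over all genes), and 11 higher and 9 lower in MSC IV (24.7%, with 11.0%). MSC II had 1 higher and 6 lower (8.64%, with 5.14%), MSC III 1 lower (1.23%, with 2.27%) and MSC V 3 higher and 3 lower (7.41%, with 3.55%). Single arrays moved these counts, among others in MSC II, MSC III and MSC IV when 1 of their own arrays was left out. In each of these preparations the calls over all genes also fell without either of its own arrays. The drops are thus not particular to the pathway genes.

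**Figure D3:**
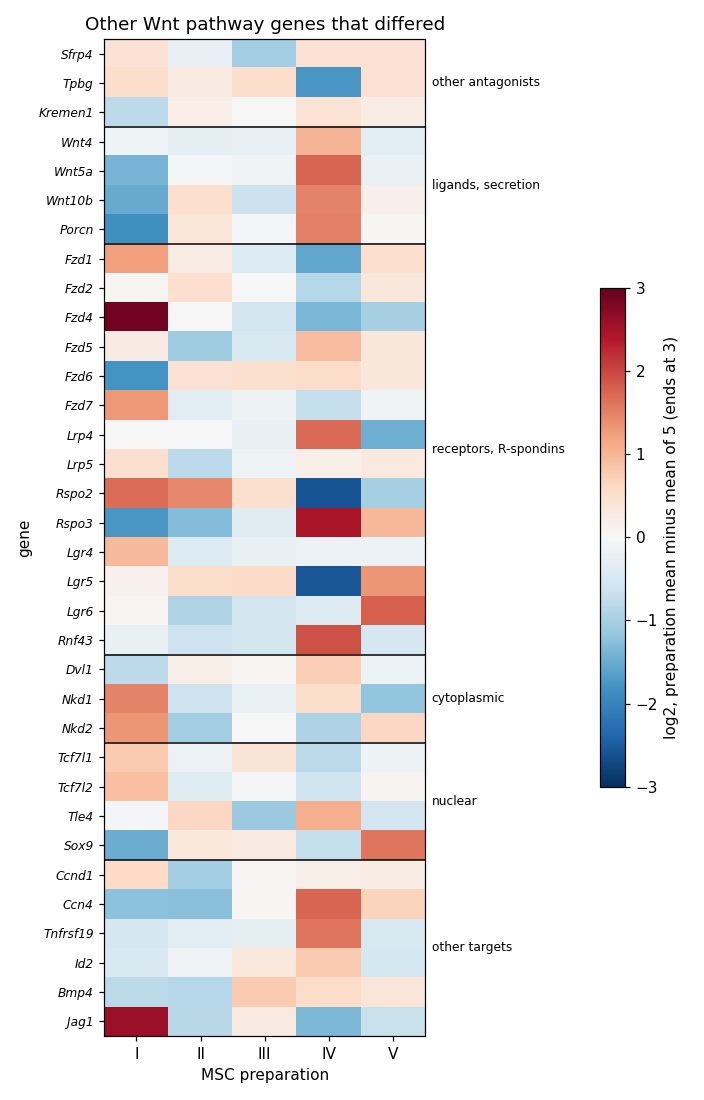
The 34 further Wnt pathway genes called by the F test (rows, grouped by role) in the 5 MSC preparations (columns). Colour is the preparation mean minus the mean of the 5 preparations in log2, with the scale ending at 3. Wnt5a, Wnt10b and Porcn are lowest in MSC I and highest in MSC IV, and Fzd4 is highest in MSC I.

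Among the ligands and their secretion genes, 3 of the 6 tested were lower in MSC I, as were 5.22% of all genes, and 4 were higher in MSC IV, as were 3.29% of all genes. Wnt5a, which mostly signals without beta-catenin, read 7.36 and 6.79 in MSC I and 10.42 and 10.04 in MSC IV, with 8.08 to 8.79 in between. It was lower in MSC I (−1.76 ± 0.216 log2, adjusted p = 0.000753) and higher in MSC IV (2.18 ± 0.216 log2, adjusted p = 0.000485). Porcn, the enzyme that attaches a lipid to Wnt proteins, was likewise lowest in MSC I and highest in MSC IV (−2.30 log2 in MSC I, adjusted p = 0.000908, and 1.88 log2 in MSC IV, adjusted p = 0.00318). Wnt10b, a ligand known to favour bone over fat, was lower in MSC I (−1.88 log2, adjusted p = 0.00326) and higher in MSC IV (1.87 log2, adjusted p = 0.00469), the latter lost without MSC IV replicate 2 (adjusted p = 0.051). Wnt4 was higher in MSC IV by 1.27 log2 (adjusted p = 0.00655), the preparation through which it passed the filter.

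Among the receptors and R-spondins, 5 of 22 were higher and 1 lower in MSC I, with 7.73% and 5.22% over all genes. Fzd4, a Frizzled receptor, showed the largest of these differences. It read 9.71 and 9.27 in MSC I and 5.12 to 6.78 elsewhere, a difference of 3.63 ± 0.154 log2 (adjusted p = 3.02e-06). Fzd7 (1.63 log2, adjusted p = 0.000139) and Lgr4, an R-spondin receptor (1.23 log2, adjusted p = 0.000446), were also higher in MSC I, and Fzd6 was lower (−2.24 log2, adjusted p = 0.000424). Fzd1 (1.55 log2) and Rspo2, a secreted Wnt enhancer (2.10 log2), were called in MSC I but not without its replicate 1 (adjusted p = 0.0897 and 0.0609).

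In MSC IV 4 of the 22 were higher and 5 lower, with 3.29% and 7.70% over all genes. Lgr5, another R-spondin receptor and a target gene, was lowest there (5.53 and 5.47, against 7.76 to 9.80 on the other arrays; −3.21 log2, adjusted p = 0.000652). Rspo2 was lower as well (−3.24 log2, adjusted p = 0.00153). Rspo3, another R-spondin, went the other way, with 12.07 and 10.03 in MSC IV and a difference of 3.06 log2 (adjusted p = 0.0298). Its call was lost in 7 of 16 other settings, among them those without MSC IV replicate 1 (2.04 log2, adjusted p = 0.219) or replicate 2 (4.08 log2, adjusted p = 0.0612), and its arrays of MSC V lay far apart (7.83 and 11.36). Rnf43, a target gene whose product removes Frizzled receptors, was above the table median in MSC IV alone (7.70 and 7.57, against 5.09 to 5.61; 2.37 log2, adjusted p = 1.93e-05), and the target gene Tnfrsf19 behaved alike (7.97 and 7.50, against 5.45 to 5.91; 1.99 log2, adjusted p = 0.000162). Both passed the filter through MSC IV only. Lrp4, a receptor for sclerostin and Dkk1, was higher in MSC IV (2.11 log2, adjusted p = 0.000605) and lower in MSC V (−1.84 log2, adjusted p = 0.00349). In MSC V Lgr6 was higher by 2.23 log2 (adjusted p = 0.000675).

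Among antagonists other than those listed, Tpbg, which inhibits the pathway at Lrp6, was lower in MSC IV (−2.19 log2, adjusted p = 0.00119), as Dkk3 and Sfrp1 were. The intracellular inhibitors Nkd1 (1.85 log2, adjusted p = 0.000892) and Nkd2 (1.66 log2, adjusted p = 0.00187) were higher in MSC I. Tcf7l2, a Tcf/Lef factor, was higher in MSC I by 1.14 log2 (adjusted p = 0.00409), the same direction as Lef1, but fell to 0.97 log2 without MSC I replicate 1. Of the target genes, Jag1, a Notch ligand, was higher in MSC I by 3.21 log2 (adjusted p = 0.000357). The called target genes did not share a direction: 2 of 15 were higher and 2 lower in MSC I, with 7.73% and 5.22% over all genes. In MSC IV 3 were higher and 3 lower, with 3.29% and 7.70% over all genes. Of the 3 higher there, Rnf43 and Tnfrsf19 passed the filter through MSC IV only.

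For each gene tested, the 3 genes with the most similar profile over the 10 arrays were listed, by Pearson r among the genes tested. They were Adamts18 (0.998), Slc8a3 (0.998) and Ifitm5 (0.997) for Dkk1, all led by the level of MSC IV. They were Tmem35a (0.99), Tex2 and Rab5c for Dkk2, and Atp2c1 (0.976), Snx25 and Pcdh19 for Dkk3. Fbln1 (0.975), E2f1 and Cubn were most like Sfrp1, and Nanog (0.968), Zfpm1 and Galnt10 most like Sfrp2. The specificity of the Nanog probe set was not checked, so what it measures is uncertain. Lrrc27 (0.975), Tada1 and Abca1 were most like Frzb, and Armcx3 (0.985), Rbbp9 and Parp12 most like Lef1. With 10 arrays of 5 preparations and 10971 candidates, high values of r arise readily, and they are given as a description.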

How the data were processed

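Bone marrow MSC of 5 preparations were measured on 10 single-colour Affymetrix arrays. The authors deposited log2 expression values, and RMA and Partek were used per the submitters' processing notes, with version numbers that the sources used here do not give. The table held 35399 probe sets with no missing values: 21789 carried 1 gene symbol in the platform annotation and were used, 1621 carried several and 11989 none. Groups came from the sample titles. Per gene, the probe set with the highest mean was kept. Preparation means were fitted over all 10 arrays with lmFit and eBayes of limma 3.58.1 (R 4.3.3), followed by Benjamini-Hochberg adjustment over the 10971 genes tested. Tests were two-sided, and the procedure was tested on simulated data. Errors after levels are SD and after differences SE. Tables and figures were made in Python 3.11.15 (pandas 2.3.3, matplotlib 3.10.9). The genes, pathway lists and markers were chosen with earlier results of these data known. All listed members are named, pathway genes by their calls and range within each list, and 3 most similar genes per tested member, without predicted or clone names. Alternatives changed the filter, probe set choice, scaling, variance model, block and arrays included. Array number limits the precision.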

Additional observations from a re-analysis of the deposited data

How the results depend on the processing

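Of 59 calls of the 7 tested genes, 33 held in every setting run that tested them, and none changed direction. The F test calls among them could not, since a range is never negative. Each of these genes had 1 probe set, so the choice of probe set could not change its values. A stricter filter, with 2 arrays above the 75th percentile (9.22), left 3 calls in MSC I, 1 in MSC III and 3 in MSC IV. In MSC I and MSC IV this was because Dkk2 and Lef1 were then not tested. Of the further pathway genes it left 22 called by the F test, 4 in MSC II, 0 in MSC III, 12 in MSC IV and 3 in MSC V. With no filter, and likewise with the replicate block, 1 call remained in MSC III. Replicate numbers did not pair the arrays, since deviations of same-numbered arrays correlated above 0.1 in 1 of 10 pairs of preparations. The block left the F test at 7 calls and the pairs at 34, and pairing by number moved no other count by over 1.5 times. Leaving out each array in turn, with the filter and, chosen after seeing the data, without it, gave 6 to 8 calls of the Wnt genes by the F test, 4 to 6 in MSC I, 0 to 4 in MSC II, 0 to 2 in MSC III, 3 to 5 in MSC IV, 0 to 3 in MSC V and 27 to 38 over the pairs. For the further pathway genes the ranges were 26 to 35 by the F test, 12 to 19 in MSC I, 2 to 10 in MSC II, 0 to 2 in MSC III, 11 to 22 in MSC IV and 2 to 7 in MSC V. The lowest count in MSC IV, 11, came without its replicate 2. Without a filter and without MSC I replicate 1, the F test no longer called Frzb (3.54 log2, adjusted p = 0.0864). Without a filter and without MSC I replicate 2, it no longer called Sfrp2 (1.76 log2, adjusted p = 0.05). The causes were not tested. Over all genes the F test called 3192, or 1861 with the stricter filter and 2912 with none. Signal over background limits Dkk1, Wif1, Axin2 and the low levels of Dkk2, Sfrp1 and Lef1.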
